A study of Mus musculus with 4 samples.

Results

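Genes for endoplasmic reticulum (ER) chaperones and collagen processing enzymes were followed through sorted dermal cells of embryonic mouse skin. The 41 genes were chosen by name and function, and 35 of them had a row of their own with status OK in all 4 deposited libraries, among 32433 named gene units. The other 6 had no separate value in at least 1 library and are given at the end of the results, outside the counts.

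Collagen chains are made into the ER, where general chaperones and lectins hold them unfolded, disulfide isomerases join their cysteines, and hydroxylases modify their prolines and lysines before the triple helix closes. The collagen chaperone Hsp47 and prolyl isomerases then guide the helix, and large COPII vesicles carry it onward. When unfolded protein builds up, ATF6, XBP1 and ATF4 raise the transcription of many of these genes. Dermal fibroblasts secrete large amounts of fibrillar collagen and depend on this machinery.

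Messenger RNA was sequenced from dermal cells of mouse embryos carrying the Axin2-LacZ reporter, in which LacZ marks cells that use the Wnt feedback gene Axin2. The foot samples are ventral skin of stage E17.5 and the back samples dorsal skin of stage E14.5. Each skin gave an Axin2-LacZ pos and an Axin2-LacZ neg library by the labels. All 4 groups therefore share the reporter and consist of a single library (1 per group), so no difference could be checked against replicates. No source used here gives the strain, the litters or any pooling of embryos. Site and stage differ together between foot and back and cannot be told apart, and in bulk RNA fewer cells of a type and less RNA per cell cannot be told apart either.

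The comparisons ask which of these genes differ with the reporter within each skin, and between skins under each label. Values are FPKM, fragments scaled to transcript length and to library depth, which allows levels of different genes to be set side by side. Runs of values are given in a fixed order, foot before back and, within a skin, the library labelled positive before the one labelled negative. The ranges in brackets are the authors' bounds, whose confidence level no source used here gives and which do not cover variation between animals. Log2 ratios were formed from (FPKM + 1) after division of each library by a median-ratio factor, and the value after ± combines the bounds of both libraries. Before this division the median over 4842 genes was shifted by -0.25 in the foot pair, 0.16 in the back pair, 0.28 in foot over back for the positive label and 0.70 for the negative label, on the log2 scale. A gene was called when (rescaled FPKM + 1) differed at least 2-fold and the larger rescaled FPKM was at least 5, so a gene of low level or close to the limit can be 2-fold apart in FPKM without a call.

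Axin2 itself stood at 9.65 FPKM (7.10 to 12.5) in the foot library labelled positive and at 12.9 (10.2 to 15.3) in the one labelled negative. In back skin it stood at 4.49 FPKM (3.89 to 5.09) under the positive label and 3.13 (2.63 to 3.64) under the negative label. In the foot the bounds overlapped and the deposited order went against the label, so every direction given for the foot pair rests on the label alone. In the back the deposited bounds did not overlap, but the rescaled bounds did, and the log2 ratio of 0.27 ± 0.25 was not called. Directions in the back therefore rest largely on the label as well. All 7 dermal fibroblast markers were present, with summed levels of 3054 to 7005 FPKM. Endothelial markers summed to at most 3.43 FPKM and leukocyte markers to at most 11.6 FPKM, while mast cell markers, of which 1, 4, 3 and 3 of 5 reached 1 FPKM and Mcpt4 was at 0 throughout, summed to 2.17 and 265 FPKM in the foot and to 24.6 and 83.9 FPKM in the back. Epcam and Cdh1, the keratinocyte markers measured, were at 0 in both foot libraries and summed to 1.68 and 1.23 FPKM in the back. Precision differed: the bounds spanned a median of ± 14.3% and ± 7.47% of the FPKM of the members of at least 5 FPKM in the foot pair, and ± 4.78% and ± 5.77% in the back libraries.

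The machinery was strongly expressed in every library. The 35 genes summed to 2935 and 4154 FPKM in the foot pair and to 2914 and 2556 FPKM in the back libraries, and 8 to 10 of them reached 100 FPKM in each. The 5 most abundant members made up 50.2% to 56.6% of the sum. Ppib led in both foot libraries, at 484 and 622 FPKM, Hspa5 led in the back library labelled positive at 394 FPKM, and Pdia3 led in the back library labelled negative at 447 FPKM. Atf6 was the least abundant member in the back library labelled negative, at 0.436 FPKM. After rescaling, the highest library exceeded the lowest by a median of 2.08-fold over 33 members that reached 5 FPKM and were above 0 throughout. The median was 2.12-fold over 7901 genes of the same kind. The members have narrower bounds than most genes, and these medians are not adjusted for that.

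**Figure D1:**
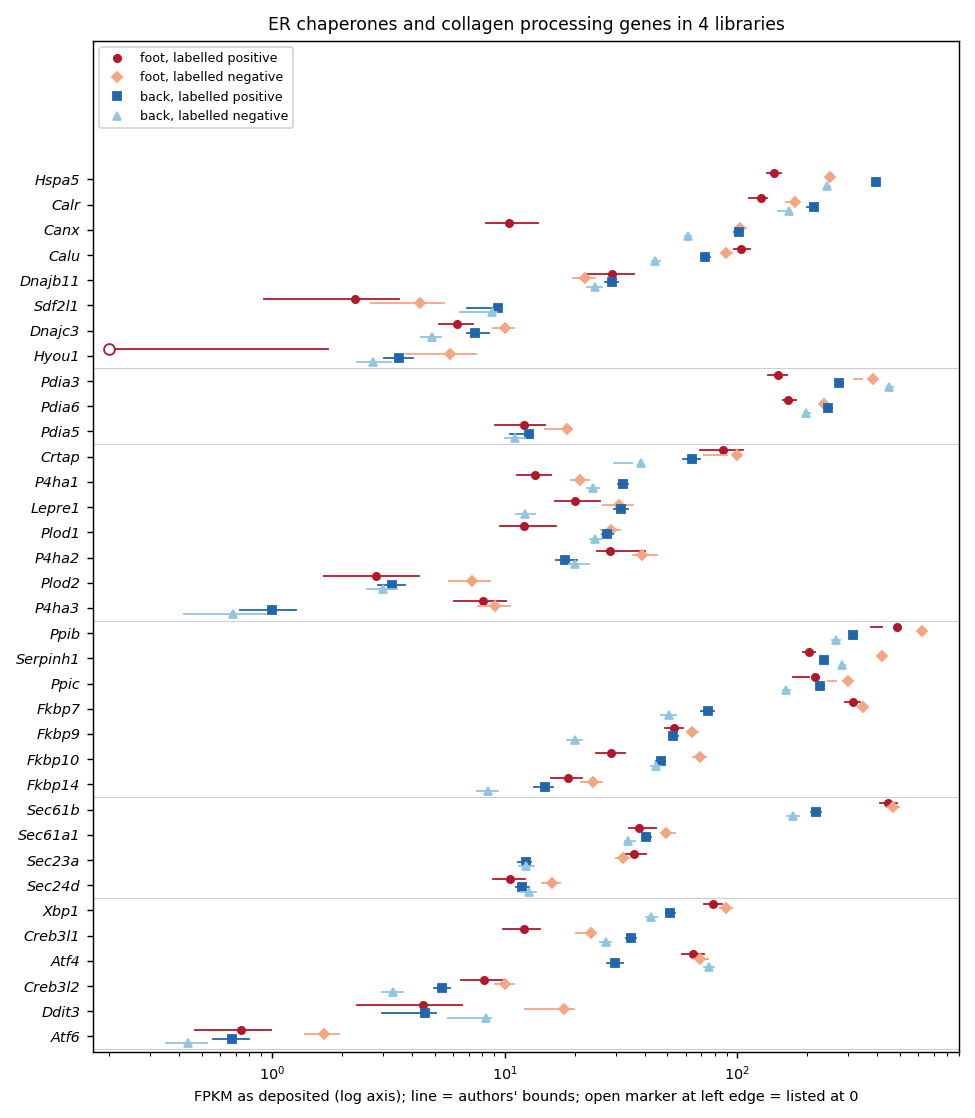
Deposited FPKM of the 35 genes (log axis) in the 4 libraries, with the authors' bounds as lines; horizontal rules separate chaperones, disulfide isomerases, hydroxylases and partners, collagen chaperone and prolyl isomerases, translocon and export, and transcription factors. Fkbp7 and P4ha3 stand higher in both foot libraries than in both back libraries, and Canx stands at 10.5 FPKM in the foot library labelled positive against 61.4 or more in the others.

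Among general chaperones and lectins, the foot library labelled positive held the lowest levels of several and the back library labelled positive the highest after rescaling. Hspa5, which encodes BiP, the main Hsp70 of the ER, lies on chromosome 2 (34627490 to 34632051, mm9). It stood at 143 FPKM (135 to 154) and 250.1 (242 to 261) in foot skin, and at 394 (394 to 406) and 243 (242 to 251) in back skin. The bounds of the 2 fractions did not overlap in either skin, and the order was opposite. Its log2 ratio of the positive over the negative label was -0.54 ± 0.11 in the foot and 0.51 ± 0.04 in the back, and foot over back it was -1.75 ± 0.10 under the positive label.

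Canx encodes calnexin, a membrane lectin that holds newly made glycoproteins in the ER. It stood at 10.5 FPKM (8.30 to 13.9) in the foot library labelled positive and at 103 (98.8 to 109) in the foot library labelled negative. In back skin it stood at 102 FPKM (bounds 96.6 to 102, just below the value) and 61.4 (59.8 to 62.9). The foot library labelled positive was thus alone at the low end, with a log2 ratio of -2.91 ± 0.35 between the foot fractions. The back fractions differed the other way, by 0.54 ± 0.05. The Canx unit began at 50107969 on chromosome 11 in the foot library labelled positive (mm9). It began at 50107870, 50107859 and 50107411 in the others, in the order given above, and the part of this in the gap was not tested. Calr encodes calreticulin, the soluble partner of calnexin, and did not share the gap: it stood at 126, 178, 213 and 167 FPKM in the 4 libraries. Its foot over back log2 ratio under the positive label was -1.05 ± 0.13, with both back values above their own bounds. Within a library Canx amounted to 0.0831 of the Calr level in the foot library labelled positive and to 0.367 to 0.580 in the other 3.

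The other chaperones were less uniform. Calu, which encodes the calcium-binding ER protein calumenin, was higher in the library labelled positive in both skins, with log2 ratios of 0.47 ± 0.14 and 0.53 ± 0.08. Dnajc3, a J-domain co-chaperone of BiP, stood at 6.25 and 9.98 FPKM in the foot pair and at 7.43 and 4.85 in the back. Dnajb11, another BiP co-chaperone, had ratios of 0.62 ± 0.38 in foot skin and 0.05 ± 0.14 in the back. Sdf2l1, which acts with Dnajb11, was lower in the foot under both labels: it stood at 2.27 FPKM (0.925 to 3.52) and 4.31 (2.66 to 5.47) there and at 9.37 (6.91 to 9.35, just below the value) and 8.80 (6.42 to 9.24) in back skin. Hyou1, a nucleotide exchange factor for BiP, was listed at 0 in the foot library labelled positive (upper bound 1.74) and stood at 5.81, 3.51 and 2.71 FPKM in the other 3 libraries.

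Sequence upstream of these genes was searched for the ER stress response element, which ATF6 and XBP1 bind together with NF-Y. It is shown because the 5 carriers with a row of their own shared the library of their lowest and that of their highest level after rescaling, while a further carrier, Hsp90b1, did not in the joined unit that holds it. The letters searched, on both strands, were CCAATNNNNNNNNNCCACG, in the 300-base RefSeq windows (GRCm38.p6) from 250 bases before to 50 after the start of each protein-coding gene. Of 34 member genes with a window, 6 held it, or 17.6%, whereas 0.166% of all 17492 genes with a window did. The members were chosen as ER genes and the element as a site of ER stress factors. The excess therefore follows from the choice and is not a result of these data. The shorter letters CCACG, which the element contains, were in 26 of the 34 and in 40.4% of all genes, and TGACG was in 13 and in 26.2%. A match is a description of the letters and not evidence of binding. The 7 matches in the 6 genes are written 5′ to 3′ on the strand that matches, with the fixed letters in capitals.
Hspa5: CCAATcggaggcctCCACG
Canx: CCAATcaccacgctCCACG
Calr: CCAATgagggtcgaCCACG
Dnajc3: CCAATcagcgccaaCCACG
Pdia6: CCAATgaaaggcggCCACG
Hsp90b1, first: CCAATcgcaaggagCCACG
Hsp90b1, second: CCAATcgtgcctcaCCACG

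The matches began 65 bases before the start of Hspa5 and 145 before that of Canx, both in the orientation of the gene. The 250 bases before those starts follow, for Hspa5 from chr2:34771840-34772089 on the plus strand and for Canx from chr11:50325674-50325923 on the minus strand (GRCm38.p6), with the fixed letters of the element in capitals.
Hspa5: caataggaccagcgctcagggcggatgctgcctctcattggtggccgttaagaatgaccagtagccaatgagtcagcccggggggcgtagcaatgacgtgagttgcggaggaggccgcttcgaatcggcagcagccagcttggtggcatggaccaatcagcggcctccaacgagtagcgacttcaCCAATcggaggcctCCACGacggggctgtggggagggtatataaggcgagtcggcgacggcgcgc
Canx: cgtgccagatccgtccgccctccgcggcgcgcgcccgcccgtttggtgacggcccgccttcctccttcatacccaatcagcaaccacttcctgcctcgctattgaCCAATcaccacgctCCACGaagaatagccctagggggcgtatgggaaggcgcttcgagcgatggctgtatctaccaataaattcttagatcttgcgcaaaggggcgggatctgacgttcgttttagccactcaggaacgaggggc

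The 5 members by rule that hold the element, Hspa5, Canx, Calr, Dnajc3 and Pdia6, were each lowest in the foot library labelled positive and highest in the back library labelled positive after rescaling. With FPKM as deposited 3 of the 5 were (Hspa5, Calr and Pdia6), while Dnajc3 was lowest in the back library labelled negative and highest in the foot library labelled negative, and Canx was highest in the latter. After rescaling 10 of all 35 members had this order: these 5, Pdia5 and P4ha1 among the 23 with a window and no match, and Ppic, Sec61a1 and Creb3l1, for which no window was used. It held for 10.2% of 8480 genes that reached 5 FPKM. Of other pathway genes that hold the element, Creld2 and Syvn1 were highest in the foot library labelled negative and did not have this order. Both were lowest in the foot library labelled positive. Their log2 ratios were -0.68 ± 0.47 and -4.52 ± 0.65 between the foot fractions and 0.07 ± 0.20 and 0.09 ± 0.19 between the back fractions. Bounds overlapped for Creld2 in both skins and for Syvn1 in the back. The 5 genes were all lower in the foot library labelled positive than in its negative counterpart (median log2 ratio -0.36, range -2.91 to -0.23). They were all higher in the back library labelled positive than in its counterpart (median 0.38, range 0.13 to 0.54). For the 23 without a match the medians were -0.09 and 0.06. These 2 directions between fractions, unlike the order over the 4 libraries, held for all 5 genes with FPKM as deposited and with upper-quartile factors. Leaving out the rescaling shifts all genes toward these directions, so the deposited values could not have reversed them. Both directions held for 24.7% of 6178 genes after rescaling, 47.9% as deposited and 25.4% with upper-quartile factors. In foot over back under the negative label 3 of the 5 were lower after rescaling and none as deposited, so no direction is given there. Hsp90b1 could be read only in a unit joined with other genes, and it did not share the foot direction: the unit had a log2 ratio of 0.43 ± 0.51 between the foot fractions, with overlapping bounds, and 0.31 ± 0.14 between the back fractions. No test was run on these groups. The element is shown because of the order its carriers shared, so these values are no separate support for it.

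**Figure D2:**
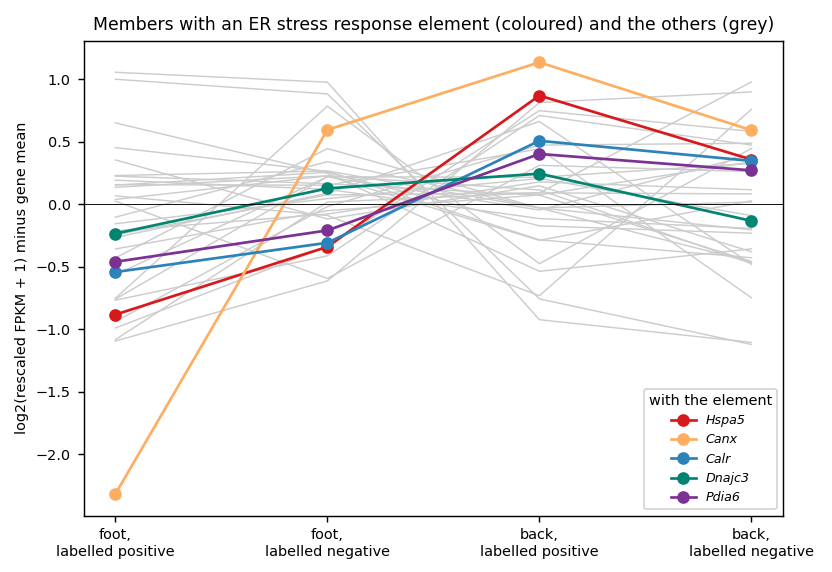
Level of each member in the 4 libraries as log2(rescaled FPKM + 1) minus the mean of that gene, with the 5 genes that hold the ER stress response element in colour and the other members in grey (Hyou1, listed at 0 in a library, is left out). After this rescaling the coloured lines are lowest at the foot library labelled positive and highest at the back library labelled positive, and Canx has the widest swing.

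The disulfide isomerases split into a pair of patterns. Pdia6, which holds the element, stood at 166 and 236 FPKM in the foot pair and at 246 and 197 in the back. Pdia3 encodes ERp57, which works with calnexin and calreticulin on glycoproteins. It stood at 149 FPKM (135 to 164) and 384 (bounds 317 to 345, below the value) in foot skin and at 274 (269 to 285) and 447 (438 to 465) in back skin. Both libraries labelled positive were thus lower than the negative library of the same skin, by log2 ratios of -1.10 ± 0.15 in foot skin and -0.89 ± 0.06 in the back. The Pdia3 unit ended at 121272717 in the back library labelled positive and at 121264423 in the others (mm9), and the part of this was not tested. Pdia5 differed by less than its bounds in the 4 comparisons, with levels of 11.1 to 18.5 FPKM.

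The hydroxylases differed in composition between the skins. Collagen prolyl 4-hydroxylase pairs the PDI subunit P4hb with an alpha subunit, and the 3 alpha genes took different shares. P4ha1 stood at 13.5 FPKM (11.3 to 15.8) and 21.1 (19.2 to 23.0) in foot skin and at 32.2 (30.8 to 33.9) and 24.0 (22.6 to 25.4) in back skin. P4ha2 stood at 28.4 and 38.9 FPKM in the foot and at 18.2 and 20.1 in the back. P4ha2 was therefore the more abundant alpha gene in both foot libraries, where P4ha1 amounted to 0.477 and 0.542 of it. P4ha1 had the higher FPKM in both back libraries, at 1.77 and 1.19 times P4ha2. In the back library labelled negative the bounds of the pair overlapped, so the order there is not resolved. The upper bound of P4ha2 was 23.0 FPKM and the lower bound of P4ha1 was 22.6. In the other libraries the bounds of the pair did not overlap. These within-library ratios do not depend on the scaling between libraries.

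P4ha3, the third alpha gene, lies on chromosome 7 (107434030 to 107468209, mm9) and was found mainly in the foot libraries, which are also the later stage. It stood at 8.07 FPKM (6.04 to 10.1) and 9.08 (7.64 to 10.5) in foot skin, and at 0.997 (0.727 to 1.27) and 0.681 (0.420 to 0.946) in back skin. Both foot libraries were above both back libraries with no overlap of bounds. The log2 ratio of foot over back was 1.98 ± 0.39 under the positive label and 2.08 ± 0.33 under the negative label. Its share of the summed alpha FPKM was 16.1% and 13.1% in the foot and 1.94% and 1.52% in the back. The fractions of 1 skin did not differ beyond the bounds.

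Both lysyl hydroxylase genes had their lowest level in the foot library labelled positive, though for Plod2 the bounds overlapped those of both back libraries. Plod1, which hydroxylates helical lysines, stood at 12.1 FPKM (9.58 to 16.6) there and at 28.5, 27.6 and 24.5 FPKM in the other 3 libraries. Plod2, which hydroxylates lysines of the telopeptides, stood at 2.80 FPKM (1.67 to 4.28) there and reached 7.24 (5.79 to 8.68) in the foot library labelled negative, against 3.28 and 3.01 in the back. The Plod1 ratio between the foot fractions was -0.92 ± 0.39 and that of Plod2 was -0.87 ± 0.54, and neither was called. Plod2 is short of a 2-fold ratio only through the pseudocount: its rescaled levels were 2.16-fold apart, and its ratio was -1.08 with a pseudocount of 0.1.

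Lepre1, Crtap and Ppib encode the complex that 3-hydroxylates collagen prolines, with Lepre1 (P3h1) as the enzyme, Crtap as its partner and Ppib as cyclophilin B. Lepre1 stood at 20.0 FPKM (16.5 to 25.8) and 31.0 (26.5 to 35.6) in foot skin and at 31.7 (29.5 to 34.0) and 12.2 (11.2 to 13.5) in back skin. The back library labelled negative was lowest, with bounds that overlapped those of the foot library labelled positive after rescaling, and the ratio between the back fractions was 1.14 ± 0.16. Crtap went the same way in the back, with a log2 ratio of 0.53 ± 0.18 and values above their own bounds in both libraries labelled negative, and Ppib differed there by 0.06 ± 0.08. In the foot the 3 genes differed by -0.35 ± 0.37, 0.06 ± 0.35 and -0.10 ± 0.10 in that order. The Crtap level was 4.35 and 3.22 times that of Lepre1 in the foot pair and 2.0 and 3.15 times in the back. The Lepre1 unit ended at 118925457 in the back library labelled negative and at 118921580 in the others (mm9), and the part of this was not tested.

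**Figure D3:**
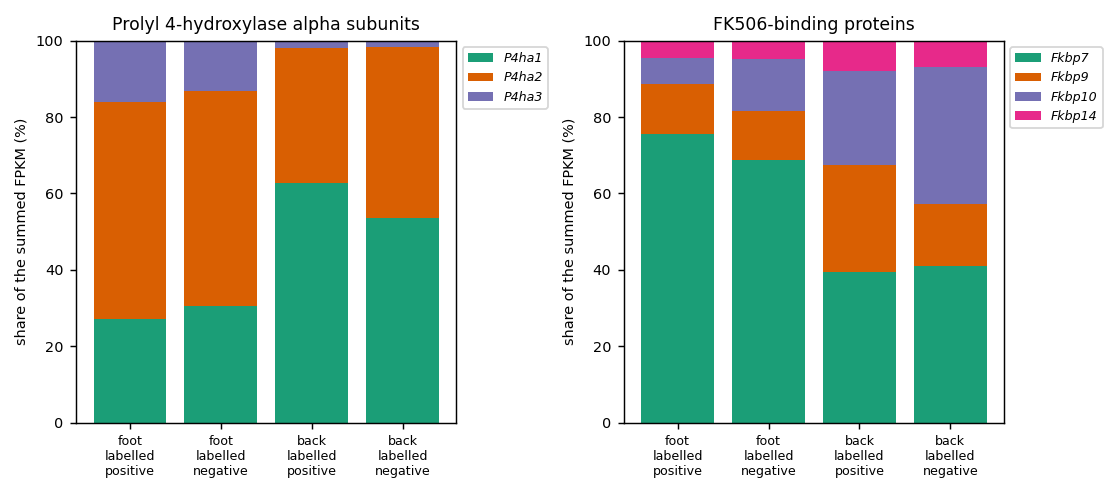
Share of each gene in the summed FPKM of its family, in percent, for the 3 alpha subunits of collagen prolyl 4-hydroxylase (left) and the 4 FK506-binding proteins (right) in the 4 libraries. P4ha2 and Fkbp7 take the larger shares in the foot, at 56.3% to 56.8% and 68.8% to 75.6%, and P4ha1 takes 53.5% to 62.7% in the back.

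Among prolyl isomerases Fkbp7 separated the skins. Fkbp7 encodes an ER isomerase of the FK506-binding family, on chromosome 2. It stood at 313 FPKM (290.0 to 337) and 346 (330 to 364) in foot skin and at 74.7 (70.1 to 79.3) and 50.8 (47.1 to 54.7) in back skin. Both foot libraries were above both back libraries, by log2 ratios of 1.76 ± 0.14 under the positive label and 2.0 ± 0.13 under the negative label. It made up 75.6% and 68.8% of the summed FPKM of the 4 FKBP genes in the foot and 39.4% and 41.1% in the back. The 250 bases before its start, chr2:76673099-76673348 on the minus strand (GRCm38.p6), hold no match to the ER stress response element and are shown for comparison with the pair above.
Fkbp7: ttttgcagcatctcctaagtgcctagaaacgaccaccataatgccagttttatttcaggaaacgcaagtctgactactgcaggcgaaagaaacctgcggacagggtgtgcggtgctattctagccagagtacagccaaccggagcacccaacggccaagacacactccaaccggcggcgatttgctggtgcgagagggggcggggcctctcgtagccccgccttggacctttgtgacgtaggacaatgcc

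The other FKBP genes did not separate the skins under both labels. Fkbp9 stood at 53.4 and 63.8 FPKM in the foot pair and at 53.1 (50.8 to 55.7) and 20.0 (18.6 to 21.5) in back skin. The back library labelled negative was lowest, with a log2 ratio of 1.19 ± 0.12 between the back fractions. Fkbp14, which encodes a collagen-binding isomerase, went the same way in the back, by 0.59 ± 0.19. Fkbp10 encodes FKBP65, a procollagen chaperone, and stood at 28.8 FPKM (24.6 to 33.0) and 69.2 (64.7 to 73.6) in foot skin and at 46.8 and 44.5 in the back. Its ratio between the foot fractions was -0.98 ± 0.22, and -1.003 with a pseudocount of 0.1, so whether it is called turns on the pseudocount.

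Serpinh1 encodes Hsp47, the chaperone dedicated to procollagen. It stood at 202 FPKM (191 to 215) and 417 (411 to 433) in foot skin and at 236 (232 to 244) and 281 (278 to 291) in back skin. The library labelled positive was lower in both skins, by log2 ratios of -0.78 ± 0.09 and -0.44 ± 0.05. Among its clients, Col1a1 stood at 262, 713, 712 and 454 FPKM in the 4 libraries, and Col1a2 at 2338, 716, 883 and 533. Col1a1 lay below its own bounds in 3 libraries, and its upper bound in the back library labelled positive was 1234. The pair of type I collagen chains thus had opposite orders in the foot. The cyclophilin genes differed little: in the foot pair Ppib and Ppic had log2 ratios of -0.10 ± 0.10 and -0.20 ± 0.13, with the foot values of Ppic and the Ppib value of the library labelled positive above their own bounds.

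At the translocon and in export, some genes differed between the skins and none was called between the sorted fractions. Sec61b, a small subunit of the Sec61 channel, stood at 446 and 468 FPKM in the foot pair and at 217 and 173 in the back, with foot over back log2 ratios of 0.74 ± 0.14 and 0.69 ± 0.12. Sec61a1, the pore subunit, ranged from 34.0 to 49.6 FPKM. Sec23a, an inner coat subunit of COPII vesicles, stood at 35.9 FPKM (32.5 to 40.4) and 32.2 (30.0 to 34.3) in foot skin and at 12.3 (11.4 to 13.0) and 12.4 (11.6 to 13.3) in back skin. Foot over back, its ratio was 1.19 ± 0.18 under the positive label and 0.60 ± 0.13 under the negative label. Sec24d, its coat partner, ranged from 10.6 to 16.0 FPKM, so Sec23a was 3.40 and 2.02 times Sec24d in the foot and 1.03 and 0.971 times in the back.

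The transcription factors differed in their patterns. Atf4, a factor of the integrated stress response whose protein is controlled mainly by translation, stood at 64.8 FPKM (57.8 to 71.8) and 69.4 (64.3 to 74.7) in foot skin and at 29.9 (27.5 to 32.3) and 75.3 (71.8 to 79.2) in back skin. The back library labelled positive was alone at the low end, and the back ratio was -1.49 ± 0.13. Ddit3, which encodes the ATF4 target CHOP, stood at 4.44 FPKM (2.33 to 6.54) and 17.9 (12.3 to 19.8) in foot skin and at 4.56 (2.98 to 5.05) and 8.30 (5.72 to 8.75) in back skin. Both libraries labelled positive were low, with log2 ratios of -1.54 ± 0.66 and -0.92 ± 0.41. The early response gene Fos stood at 8.59 and 40.5 FPKM in the foot pair and at 32.0 and 99.3 in the back. Over the early response list it belongs to, 2, 4, 5 and 5 of 5 measured genes reached 1 FPKM, the sums were 15.9, 65.7, 72.8 and 186 FPKM, and Junb and Atf3 were at 0 in the foot library labelled positive. Not every gene of that list followed Fos: Egr1 stood at 6.88, 17.55, 10.8 and 6.98 FPKM and Fosb at 0.462, 0.342, 1.87 and 3.18. Fos and the summed mast cell markers given above were, like Ddit3, Pdia3 and Serpinh1, lower under the positive label in both skins, and the part of either in these results was not tested.

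Creb3l1 encodes OASIS, an ER membrane factor that activates Col1a1 in mouse osteoblasts. It stood at 12.0 FPKM (9.84 to 14.2) and 23.4 (20.2 to 24.8) in foot skin and at 34.8 (33.4 to 36.5) and 27.2 (25.6 to 28.8) in back skin. It was lowest in the foot library labelled positive and highest in the back library labelled positive, with a foot over back ratio of -1.74 ± 0.25 under the positive label. Its relative Creb3l2, which acts on Sec23a in mouse cartilage, stood at 8.13 and 10.02 FPKM in the foot and at 5.37 and 3.30 in the back. Xbp1 stood at 78.4, 89.2, 51.4 and 42.7 FPKM. Its bounds overlapped between the fractions, with log2 ratios of 0.07 ± 0.16 in foot skin and 0.08 ± 0.10 in back skin, and did not overlap between the skins, with foot over back ratios of 0.31 ± 0.15 and 0.31 ± 0.12. Gene-level FPKM does not separate its spliced and unspliced forms. Atf6 stayed between 0.436 and 1.67 FPKM.

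Counted together, few members were called between the sorted fractions. In the foot 3 of 32 tested members were called, all lower in the library labelled positive (Canx, Pdia3 and Ddit3), where 21.2% of all 7355 genes tested were called and 9.99% were called lower. In the back 3 of 31 were called, Lepre1 and Fkbp9 higher and Atf4 lower, against 8.27% of 7303 genes (4.52% higher and 3.75% lower). The share of members called was below that of all genes in the foot and close to it in the back. The members' median log2 ratio was -0.25 in the foot, where 25 of 35 lay below 0, and 0.14 in the back, where 24 lay above 0; the medians of all genes tested were 0.01 and -0.0029. With FPKM as deposited 8 members were called lower in the foot, where 15.4% of all genes were, and 32 lay below 0, as did 65.9% of all genes. In the back 28 then lay above 0, as did 70.4% of all genes.

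Small differences beyond the bounds were frequent. In the foot the rescaled bounds did not overlap for 15 members that were lower and 3 that were higher in the library labelled positive, against 18.2% and 20.1% of all genes tested and 38.3% either way. In the back they did not overlap for 15 that were higher and 7 that were lower, against 21.5% and 18.5% and 40% either way. The members are more abundant than most genes and their bounds are narrower: over all genes of at least 5 FPKM the median span was ± 23.1% and ± 14.1% in the foot pair. These pairs share no library, and of 30 members tested in both, 14 (46.7%) were lower in the foot and higher in the back library labelled positive, against 24.7% of 6178 genes. The share was 23 of 51 (45.1%) among the other secretory pathway genes. As deposited 21 of the 30 members had these directions, against 47.9% of all genes. The reverse held for 2 members (6.67%), against 23.3% of all genes.

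**Figure D4:**
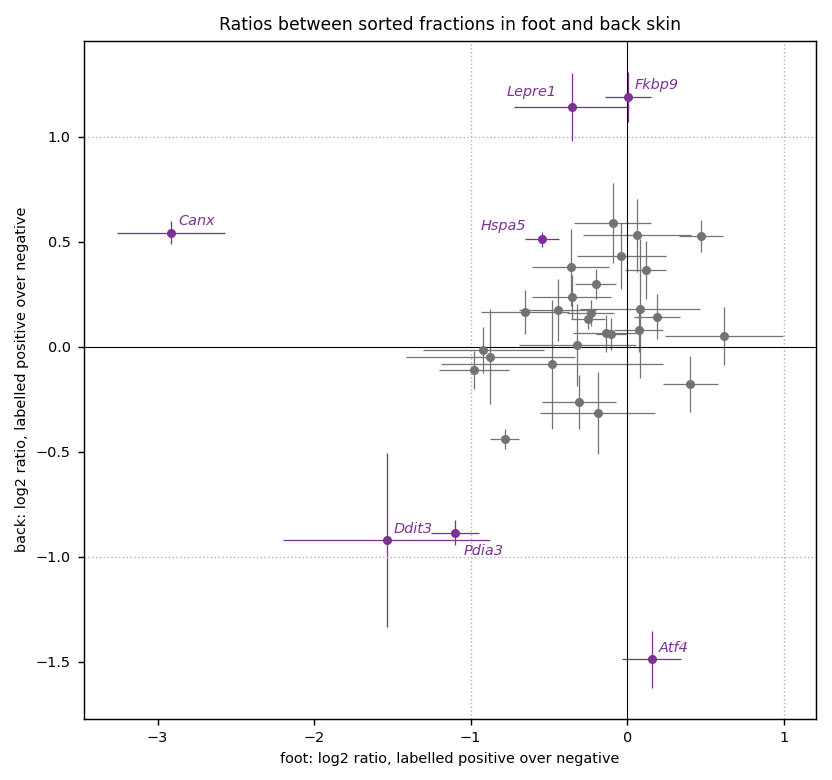
Log2 ratio of the library labelled positive over the one labelled negative in foot (horizontal) and back (vertical) for 34 members (Hyou1, listed at 0 in a library, is left out), with error bars from the authors' bounds; dotted lines mark 2-fold, and names mark called members and Hspa5. Most points lie left of 0 and most lie above 0, but of 30 members tested in both skins only 14 do both. Canx is far left at -2.91 and Atf4 lowest at -1.49.

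Between the skins, the 2 labels gave different counts. Under the positive label 11 of 32 tested members were called in foot over back, against 30.5% of all genes. The 8 lower ones were Hspa5, Canx, Calr, Sdf2l1, Pdia3, P4ha1, Plod1 and Creb3l1, and the 3 higher ones P4ha3, Fkbp7 and Sec23a. With FPKM as deposited the split was 6 lower and 5 higher, where 11.4% and 21.3% of all genes were called, and among members whose values lay inside their own bounds 5 were lower. Under the negative label 3 of 33 were called, P4ha3 and Fkbp7 higher and Sdf2l1 lower, against 28.1% of all genes. As deposited the split under the negative label was 13 higher and 0 lower, where 37.6% and 5.27% of all genes were called, so the count there depends on the scaling. Between skins the bounds did not overlap for 7 members higher and 17 lower in the foot under the positive label, where the shares of all genes were 27.1% and 28.2% (55.3% either way). Under the negative label they did not overlap for 14 higher and 13 lower, where the shares were 30.2% and 32.7% (62.9% either way). The median log2 ratio of the members was -0.36 under the positive label and 0.20 under the negative label.

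**Figure D5:**
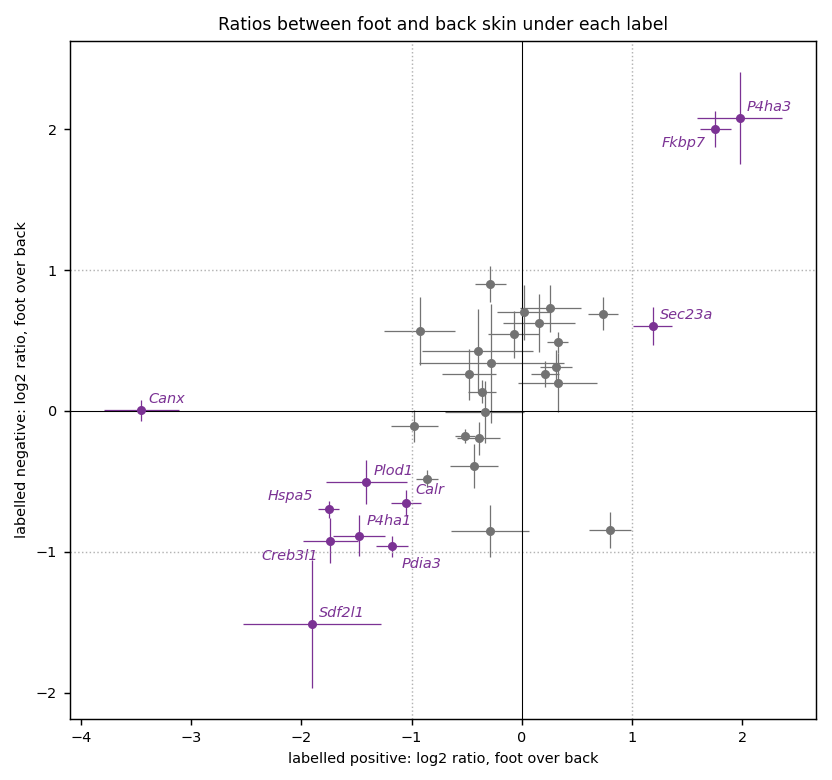
Log2 ratio of foot over back under the positive label (horizontal) and the negative label (vertical) for 34 members (Hyou1, listed at 0 in a library, is left out), with error bars from the authors' bounds; dotted lines mark 2-fold, and names mark called members. P4ha3 and Fkbp7 lie at the upper right under both labels, Sdf2l1 at the lower left, and Canx is far left at -3.45 under the positive label but at 0.00 under the negative.

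For the foot minus back difference of the sort ratios, 5 of 33 tested members were at least 2-fold apart, against 26.6% of 8480 genes. Atf4 had a difference of 1.65 ± 0.23. Canx had -3.46 ± 0.35, Lepre1 -1.50 ± 0.40, Fkbp9 -1.19 ± 0.19 and Hspa5 -1.05 ± 0.12. Over all members the median difference was -0.40 with 30 of 35 below 0, against 49.6% of all genes tested. As deposited 32 lay below 0, as did 71.7% of all genes. Of the members 13 were then at least 2-fold below, as were 23.8% of all genes.

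The remaining genes had no row of their own in at least 1 library. Hsp90b1, which encodes the ER Hsp90 Grp94 and holds the element at 2 places, was part of a unit of 3 genes, at 106, 94.1, 135 and 95.3 FPKM in the 4 libraries. Pdia4, counted with a microRNA gene, stood at 35.2, 58.5, 65.0 and 47.8 FPKM in that order, the last with bounds of 42.3 to 190. Plod3, also counted with a microRNA gene, stood at 5.01, 8.55, 10.3 and 8.83 FPKM. P4hb stood at 479 FPKM in the foot library labelled positive and at 205 (above its bounds) and 181 in the back. In the remaining library it was joined to Arhgdia, and the unit had 377 FPKM (also above its bounds). Its foot over back log2 ratio under the positive label was 0.92 ± 0.14. Pcolce, which encodes an enhancer of procollagen C-proteinase outside the cell, was joined to Fbxo24 at 226 and 189 FPKM in the foot and 107 in the back library labelled positive, and to a further gene in the fourth. Mia3, which encodes the collagen cargo receptor TANGO1, has its gene ID on an unplaced contig that is listed at 0 in all 4 libraries.

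Other genes of the secretory pathway were counted in the same way. Of 71 listed genes 67 had a value. In the foot 2 of 53 tested were called higher and 5 lower in the library labelled positive, against 11.2% and 9.99% of all genes tested. In the back 2 of 53 were called higher and 1 lower, against 4.52% and 3.75% of all genes. In foot over back 2 were higher and 6 lower of 53 under the positive label, against 14% and 16.5% of all genes. Under the negative label 5 were higher and 3 lower of 52, against 12.6% and 15.5%. Those called in the foot were Ssr4 and Sec24a higher and Erp44, Sil1, Edem1, Syvn1 and Sec31a lower, and in the back Prkcsh and Sel1l higher and Bmp1 lower. Called between the skins only were Dad1 higher and Derl2 and Atf6b lower, each under both labels. Asns and Adamts2 were called lower in the foot under the positive label alone, and Sec13 higher under the negative label alone. Syvn1 was listed at 0 in the foot library labelled positive. Their medians over the 4 comparisons were -0.06, 0.12, -0.11 and 0.13 in that order, of the same sign as those of the members and nearer to 0. In the back 50 of the 67 lay above 0, against 49.5% of all genes tested.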

How the data were processed

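Per the labels' protocols, skin was digested with collagenase (1000 U/ml) and hyaluronidase (300 U/ml), cells were sorted into Trizol-LS, and mRNA libraries made with a TruSeq kit were read on a HiSeq. The authors deposited FPKM per gene with bounds, and the submitters' processing notes name TopHat, Cufflinks and the build mm9. No source used here gives versions, settings or annotation. Read counts were not used here, so depth is unknown and the bounds stand for precision.

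Rows of 1 symbol were summed, 22 symbols altered to dates were restored, and units named alike with status OK in all 4 libraries were kept. The mm9 span of the unit differed between libraries for Canx, Pdia3, Lepre1, Serpinh1, Fkbp7, Fkbp9, Fkbp10, Fkbp14, Ppic and Xbp1. Factors were 1.10, 1.32, 0.893 and 0.786 (foot positive, foot negative, back positive, back negative), the median ratio to the geometric mean over 4842 genes of at least 5 FPKM in every library. The pseudocount of 1 understates ratios of low genes. Calls needed 2-fold and 5 FPKM in the larger library. Of 140 member values 10 lay outside their own bounds. With 1 library per group there is no test and no p-value. Alternatives were scaling, pseudocount, minimum, call rule, duplicate rows and bounds. The ratio and call steps were tested on simulated data. The members, marker and pathway lists and motif were chosen with earlier results of these data known. All 41 members were named, with further pathway genes when called on the same rule between fractions or between skins. Pathway genes called only in the difference of the sort ratios were not named. Fos, Creld2 and the printed promoters were chosen after values were seen. Python 3.11.15, numpy 2.4.6 and pandas 2.3.3 were used.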

Additional observations from a re-analysis of the deposited data

Results flagged for a closer look

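In 9 members the rescaled bounds of the sorted fractions did not overlap in either skin and the direction was opposite in foot and back. Of 30 members tested in both skins, 8 were lower in foot and higher in back in this way, against 4.81% of 6178 genes and 11.8% of the other secretory pathway genes, and 1 was the reverse, against 2.88% and 3.92%. The members have narrower bounds than most genes, as given above, and these shares are not adjusted for that. The difference between the skins was not tested, since each group is 1 library, and the foot direction rests on the label. Subtracting the back log2 ratio from the foot log2 ratio gave -3.46 for Canx, -1.05 for Hspa5, -0.82 for Creb3l1, -0.74 for Dnajc3, -0.59 for P4ha1, -0.50 for Ppic, -0.39 for Calr and -0.38 for Pdia6. It was 0.58 for Sec23a, the 1 of these 9 whose positive label was higher in foot and lower in back. For Sec23a it was 0.57 with upper-quartile factors. With FPKM as deposited it was 0.16 ± 0.22, and the Sec23a ratio did not exceed its bounds in either skin. The members with a negative difference kept both directions as deposited, a scaling that shifts all genes toward them. Some ratios were smaller than the shifts that rescaling removed (-0.25 in foot, 0.16 in back). Ppic had -0.20 in foot and Pdia6 had 0.13 in back. Ppic in both foot libraries, Calr in both back libraries and Canx in the back library labelled positive had values above their own bounds.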

How the results depend on the processing

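No paired analysis was possible because each group holds 1 library and the labels give no replicate numbers. For the same reason no library could be left out. With FPKM as deposited, 8 members were called lower between the foot fractions (median -0.51), 5 were called higher in foot over back under the positive label (median -0.064), 13 higher and 0 lower under the negative label (median 0.88), and 13 below in the difference of ratios (median -0.84); that scaling shifts all genes as well. With a pseudocount of 0.1, 5 were lower in the foot (Plod2 and Fkbp10 added) and 2 in the back (Ddit3 added). With non-overlapping bounds as the call, 3 were higher and 15 lower in the foot, 15 and 7 in the back, 7 and 17 in foot over back under the positive label, and 14 and 13 under the negative label. At 1.5-fold, 1 was higher and 8 lower in the foot, 3 lower in the back, 5 higher under the positive label, 8 higher and 8 lower under the negative label, and 12 below in the difference. Among members inside their own bounds, 5 were lower in foot over back under the positive label. No share of all genes is given for the pseudocount of 0.1, the 1.5-fold rule or the members inside their bounds. Those counts show the effect of the setting and cannot be read against all genes. Upper-quartile factors, no minimum and the highest row per symbol left every count of members within 1.5 times. No called member changed sign under any alternative; 136 of the single-gene values moved by more than their bounds, 126 of them with FPKM as deposited. The foot library labelled positive has the widest bounds and limits the precision of the ratios it enters.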

Other observations

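Among the other secretory pathway genes, some were far apart in 1 library. Prkcsh, the beta subunit of glucosidase II, stood at 226 FPKM in the back library labelled positive and at 15.7, 25.9 and 19.4 in the foot positive, foot negative and back negative libraries. Sel1l, of the ER degradation complex, stood at 3.59 FPKM in the back library labelled negative and at 46.4, 28.1 and 22.2 in the others. Its partner Syvn1 was listed at 0 in the foot library labelled positive and stood at 28.8, 5.34 and 4.36 FPKM elsewhere; its promoter window holds the ER stress response element. Sec31a, of the outer COPII coat, stood at 99.1 FPKM in the foot library labelled negative and at 17.9 to 26.2 in the other 3. Dad1, a subunit of oligosaccharyltransferase, was higher in the foot under both labels, with log2 ratios of 1.32 ± 0.13 and 1.34 ± 0.11. Derl2 and Atf6b were lower in the foot under both labels. Their ratios were -1.47 ± 0.39 and -1.05 ± 0.23 for Derl2 and -1.89 ± 0.99 and -2.02 ± 0.48 for Atf6b. Bmp1, the procollagen C-proteinase, stood at 33.1 FPKM in the back library labelled negative and at 13.3 to 16.4 elsewhere. Creld2, which holds the ER stress response element in its promoter window, stood at 17.3 (label positive) and 34.0 FPKM (label negative) in the foot and at 22.8 and 19.1 in the back. Some of these values lay above their own bounds: Sec31a in the foot library labelled negative, Bmp1 in the back library labelled negative, and 3 libraries each for Sel1l and Creld2.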
